A study of Mus musculus with 2 samples.

Results

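The miR-26 family of the mouse, a set of 3 microRNA (miRNA) genes that each lie in an intron of a Ctdsp phosphatase gene, was described in small-RNA libraries of the left cerebral cortex. The members Mir26a-1, Mir26a-2 and Mir26b were selected by their GENCODE M21 gene names, and they are 3 of the 2202 miRNA genes counted. They were chosen with their counts in these libraries known, so their levels and the difference between libraries are given as a description, without a test. Bulk tissue was used, from 2 male B6CASTF1/J mice (the F1 hybrid of C57BL/6J and CAST/EiJ) aged 25 days, with 1 library from each mouse and no treatment named in the labels. Both libraries belong to 1 group, so that the data allow a description of levels and of the spread between replicate 1 and replicate 2, but no comparison of conditions.

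MicroRNAs are cut from hairpin transcripts as a 5p and a 3p arm, and the arm loaded into an Argonaute protein finds target mRNAs mainly through its seed, the bases near its 5′ end. The miR-26 family is known as a tumour-suppressor and differentiation-associated family that is expressed in many tissues, brain included. Its hosts Ctdsp1, Ctdsp2 and Ctdspl encode small phosphatases of the RNA polymerase II C-terminal domain, which help the repressor REST to keep neuronal genes silent outside neurons. In zebrafish, miR-26b is known to repress ctdsp2 during neurogenesis.

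The mature sequences are shown because they decide which reads can be given to a single member. They were taken from RefSeq on GRCm38.p6, the assembly also called mm10, and all 3 members had an entry. Sequences run 5′ to 3′, and capitals mark the seed, bases 2 to 8.
miR-26a-5p, from Mir26a-1 and from Mir26a-2: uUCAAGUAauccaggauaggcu
miR-26b-5p, from Mir26b: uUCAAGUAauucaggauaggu
miR-26a-1-3p, from Mir26a-1: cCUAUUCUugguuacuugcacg
miR-26a-2-3p, from Mir26a-2: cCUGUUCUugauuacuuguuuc
miR-26b-3p, from Mir26b: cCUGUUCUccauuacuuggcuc

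The 5p arms formed a single seed family. Every 5p arm had the seed UCAAGUA, and among 955 genes with a mature RefSeq entry matched to the files by position, these 3 were the only ones with it. Mir26a-1 and Mir26a-2 had an identical 5p arm of 22 bases. The 5p arm of Mir26b was listed with 21 bases and differed from it by C11U and C21U (base of miR-26a-5p first, positions counted from 1 at the 5′ end), both outside the seed. The 3p arms were less alike: those of the miR-26a genes matched at 16 of 22 bases, that of Mir26a-2 matched that of Mir26b at 18 of 22, and that of Mir26a-1 matched that of Mir26b at 14 of 22. By seed, the 3p arms of Mir26a-2 and Mir26b went together (CUGUUCU), and that of Mir26a-1 stood alone (CUAUUCU).

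Hairpins show how far the shared stretch runs beyond the mature arm, and here capitals mark both mature arms.
Mir26a-1, chr9:119031796-119031885, plus strand: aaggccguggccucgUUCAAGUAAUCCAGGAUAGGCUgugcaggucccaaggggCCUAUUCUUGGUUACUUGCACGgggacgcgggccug
Mir26a-2, chr10:126995530-126995613, plus strand: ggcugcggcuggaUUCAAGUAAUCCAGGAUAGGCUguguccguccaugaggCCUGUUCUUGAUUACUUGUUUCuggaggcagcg
Mir26b, chr1:74394310-74394394, plus strand: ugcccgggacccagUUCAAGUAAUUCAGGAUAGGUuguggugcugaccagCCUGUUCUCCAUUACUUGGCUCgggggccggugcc
Longest run common to Mir26a-1 and Mir26a-2, with the 5p arm in capitals: UUCAAGUAAUCCAGGAUAGGCUgug

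The copies of miR-26a shared 25 bases, which begin exactly at the first base of the 5p arm and end 3 bases past it. The files put reads that match several places in the genome into an entry of their own and not on any gene. Among the hairpins of the 2202 genes, a stretch of 18 to 25 bases that starts at the first base of miR-26a-5p was therefore held by both copies. From the same start, stretches became particular to 1 copy at 26 bases. Stretches that start 1 or 2 bases further upstream matched 1 copy at every length from 18 to 29 bases. For Mir26b, stretches of each length from 18 to 29 bases and each start within 2 bases of the 5p end matched only Mir26b. The longest run that Mir26b shared with any other hairpin was 11 bases.

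**Figure D1:**
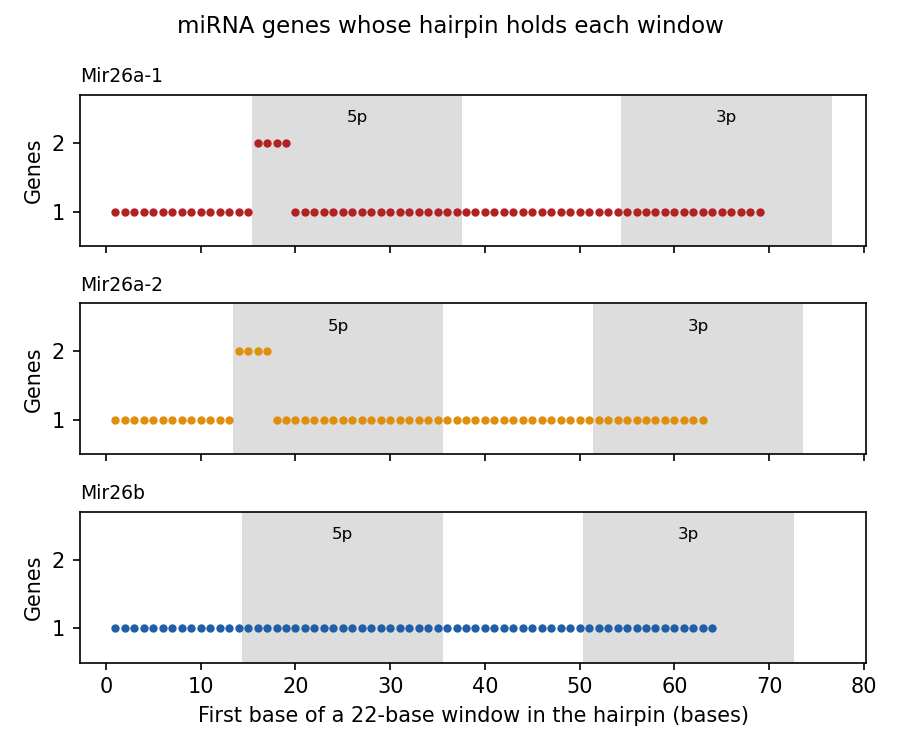
Number of miRNA genes (y axis, of the 2202 counted) whose hairpin holds each window of 22 bases, by the window's first base in the hairpin (x axis, bases), for the 3 genes; grey bands mark the 5p and 3p arms. In each miR-26a hairpin 4 windows at the start of the 5p arm lie in both copies, and in Mir26b every window lies in 1 gene.

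Of all stretches of 18 to 29 bases in its hairpin, Mir26a-1 had 774 of 810 to itself (95.6%), and the other 36 were also in Mir26a-2. Mir26a-2 likewise had 702 of 738 to itself (95.1%). Mir26b had all 750 to itself. Exact reads that could be given to 1 miR-26a gene were thus those with an earlier start, a longer run, or bases of the loop or the 3p arm, as judged among miRNA hairpins. Reads with mismatches, untemplated bases at the 3′ end, or matches elsewhere in the genome were not examined. The F1 mice carry a CAST/EiJ allele whose reads can mismatch the C57BL/6J reference, which was not tested.

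The host introns placed the members at a like position in a like gene. Mir26a-1 (ENSMUSG00000065513.1) lay in intron 5 of the 8-exon principal transcript of Ctdspl, 1543 bases past the upstream exon, in an intron of 3283 bases. Mir26a-2 (ENSMUSG00000065430.1) lay in intron 5 of the 8-exon principal transcript of Ctdsp2, with only 241 bases left to the next exon, in an intron of 1946 bases. Mir26b (ENSMUSG00000065468.1) lay in intron 4 of the 7-exon principal transcript of Ctdsp1, with 234 bases before it and 245 after it in an intron of 564 bases. All 3 shared the plus strand of their host, and 969 of the 2202 genes lay within a protein-coding gene on its strand. The hosts differed in extent, with 117546 bases for Ctdspl, 21253 for Ctdsp2 and 5777 for Ctdsp1.

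**Figure D2:**
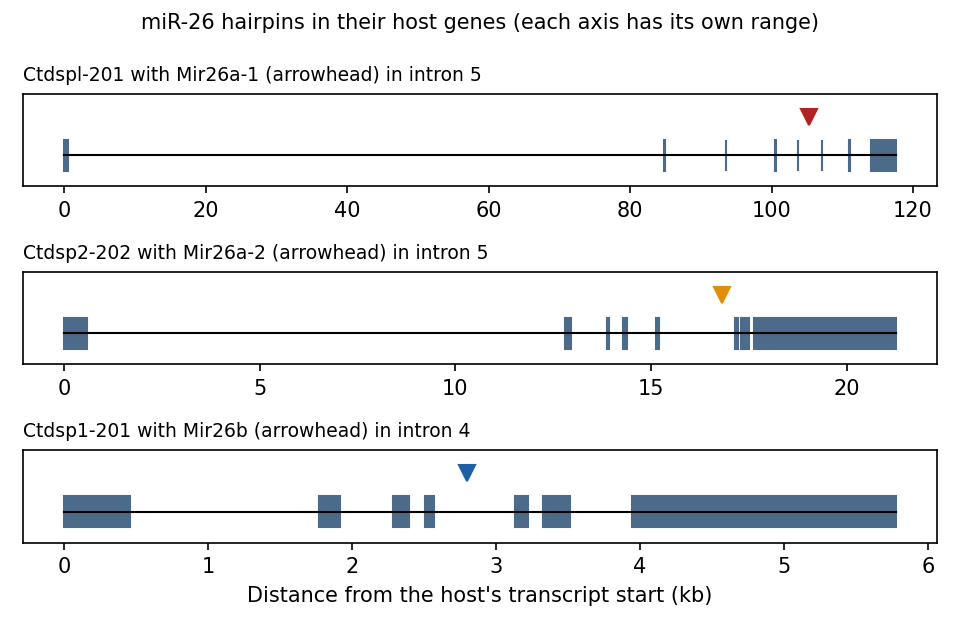
Exons (blocks) and introns (line) of the 3 host transcripts against distance from the transcript start (x axis, kb), with the miR-26 hairpin as an arrowhead; each panel has its own range. The hairpins sit in intron 5, 5 and 4, and Ctdsp1, at 5777 bases, is the shortest host.

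The letters complementary to the shared seed, TACTTGA, were looked for in the 3′ untranslated regions (UTRs) of the same host transcripts, on the transcribed strand. That of Ctdsp2 held the motif once, at base 1080 of 3483, and those of Ctdsp1 (1701 bases) and Ctdspl (3349 bases) did not hold it.
Match in the Ctdsp2 UTR (chromosome 10), with the motif in capitals: ccaagtgttgctctTACTTGAttt
Over all coding genes with a principal transcript, 1879 of 20695 such UTRs (9.08%) held the motif, and of the 4021 UTRs between 1701 and 3483 bases long, 16.3% did. A match or its absence describes the letters only.

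Own-strand counts summed to 2388379 in replicate 1 and 4447390 in replicate 2, a depth ratio of 1.86. Levels are counts per 1000000 own-strand counts (CPM), not divided by length, since a read spans a whole mature miRNA. Of the mapped reads, 48.6% had several matches in replicate 1, as did 52.8% in replicate 2, and how many of them were miR-26a is not known here. The tissue label was read against marker miRNAs. Neuronal Mir128-1, Mir137 and Mir138-1 had 11284 or more counts in each library, and the 11 neuron markers summed to 27401 and 37146.5 CPM in replicates 1 and 2, while markers from outside the brain summed to 164 and 192 CPM. The Mir124a copies, otherwise defining for neurons, had between 0 and 9 counts, and the Mir9 copies of the same list had 11 to 352. Reads that match several places are on no gene, so reads common to such copies are not in these counts. The low counts thus do not show low levels of the mature miRNAs. Summed levels of 4 astrocyte markers were 33440 and 47656 CPM, and of 3 oligodendrocyte markers 2726 and 3556 CPM. The 4 markers of microglia and white cells summed to 1513 and 1639 CPM, and the 2 of red cells to 103 and 119 CPM. Mir29a is both an astrocyte marker here and a gene of the REST and Ctdsp circuit below. The neuron sum lacks the reads common to copies, so these sums do not rank cell types. The 3 endothelial and mural markers summed to 16755 and 28009.5 CPM. Of these, Mir126a was higher in replicate 2 (10782 and 22504 CPM), while Mir143 (5660.3 and 5238 CPM) and Mir145a (312 and 268 CPM) were lower in replicate 2. The part of cell make-up in the values below was not tested. In bulk tissue, fewer cells of a type and less RNA per cell cannot be told apart.

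Mir26b was the member with the most assigned reads. Replicate 1 gave it 10329 counts (4325 CPM) and replicate 2 gave it 24451 (5498 CPM), and its level was 4911 ± 830 CPM (SD, n = 2). It ranked 44th of the 2202 genes in replicate 1 and 38th in replicate 2. Of all own-strand counts it took 0.432% in replicate 1, where the 95% Clopper-Pearson interval was 0.424 to 0.441%, and 0.550% in replicate 2, with an interval of 0.543 to 0.557%. Such intervals, and floors, cover counting error alone: without molecular identifiers, reads of 1 molecule cannot be told from reads of several. Mir26b was at a similar level in both mice, and its excess in replicate 2, 1.27-fold, was beyond counting error.

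Mir26a-2 had few assigned reads in both libraries. It had 179 counts in replicate 1 and 226 in replicate 2, at 74.9 and 50.8 CPM, with a level of 62.9 ± 17.1 CPM (SD, n = 2). It ranked 216th and 240th. Because the deeper library held more counts but a smaller share, Mir26a-2 was lower in replicate 2, at 0.678 of its level in replicate 1.

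Mir26a-1 was the member on which the libraries parted. It had 396 counts in replicate 1 and 24 in replicate 2, at 166 CPM and 5.40 CPM, so its mean of 85.6 CPM (SD 113, n = 2) described neither library. Its rank was 177 in replicate 1 and 370 in replicate 2. The level in replicate 1 was 30.7 times that in replicate 2, with a 95% exact binomial interval of 20.3 to 48.5. Even the lower value stood above the floor of 3 counts, which corresponds to 0.675 CPM there and 1.26 CPM in replicate 1. The opposite strand of each member had 0 counts in both libraries, and 0 counts allow up to that floor.

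**Figure D3:**
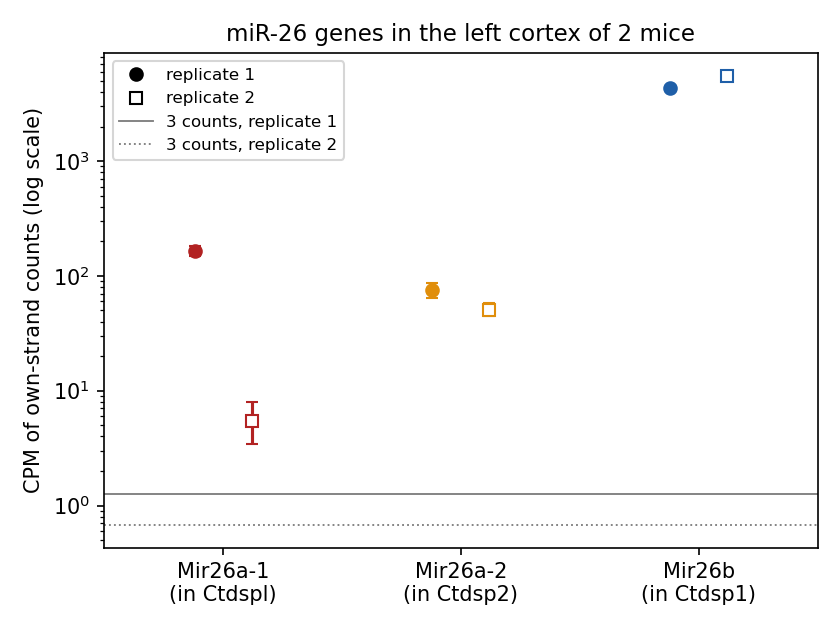
CPM of own-strand counts (y axis, log scale) for each miR-26 gene in replicate 1 (filled circles) and replicate 2 (open squares); bars are 95% Clopper-Pearson intervals, often smaller than the symbol, and grey lines mark 3 counts. Mir26b stands at 4325 and 5498 CPM, Mir26a-2 at 74.9 and 50.8 CPM, and Mir26a-1 at 166 and 5.40 CPM.

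The order of the levels was Mir26b above both miR-26a genes in each library, and the lower places were exchanged. In replicate 1 Mir26a-1 (166 CPM) stood above Mir26a-2 (74.9 CPM), and in replicate 2 Mir26a-2 (50.8 CPM) stood above Mir26a-1 (5.40 CPM). The means of the miR-26a genes do not compare them, since that of Mir26a-1 described neither library. Mir26b had 17.96 times the summed counts of the miR-26a genes in replicate 1 and 97.8 times in replicate 2. Of the counts of all 3 genes, it took 94.7% in replicate 1 and 98.99% in replicate 2. These shares cover reads assigned to 1 gene, which cannot include an exact read of the listed 5p arm of miR-26a, so they do not rank miR-26a against miR-26b as mature miRNAs. Summed over the family, levels were 4565 and 5554 CPM, or 5060 ± 699 CPM (SD, n = 2).

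Between the libraries, the members' log2 ratios (replicate 2 over replicate 1) were 0.35 for Mir26b (95% exact binomial interval 0.31 to 0.38), -0.56 for Mir26a-2 (-0.85 to -0.27) and -4.94 for Mir26a-1 (-5.60 to -4.35). To place them, the 392 genes that reached 10 counts in both libraries, called measured, were read by the same rule, and all 3 members were measured. Past a 2-fold difference lay 1 member, Mir26a-1, on the lower side, where 3.83% of measured genes lay (15 genes), while 8.42% lay past 2-fold on the higher side (33 genes). Their median log2 ratio was 0.06, and the middle 90% ran from -0.91 to 1.23. Mir26b and Mir26a-2 were inside that range, with 116 measured genes above the ratio of Mir26b and 46 below that of Mir26a-2. Mir26a-1 had the lowest ratio of the 392, and the next lowest, Mir879, was at -2.07. At the other end, Mir301 had the highest ratio, 4.44, so a difference of this order was not particular to Mir26a-1. Genes with fewer than 10 counts in either library are outside this ranking, also those nearly absent from 1 library. With a minimum of 1 count in each library, 50 genes lay past 2-fold on the lower side.

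**Figure D4:**
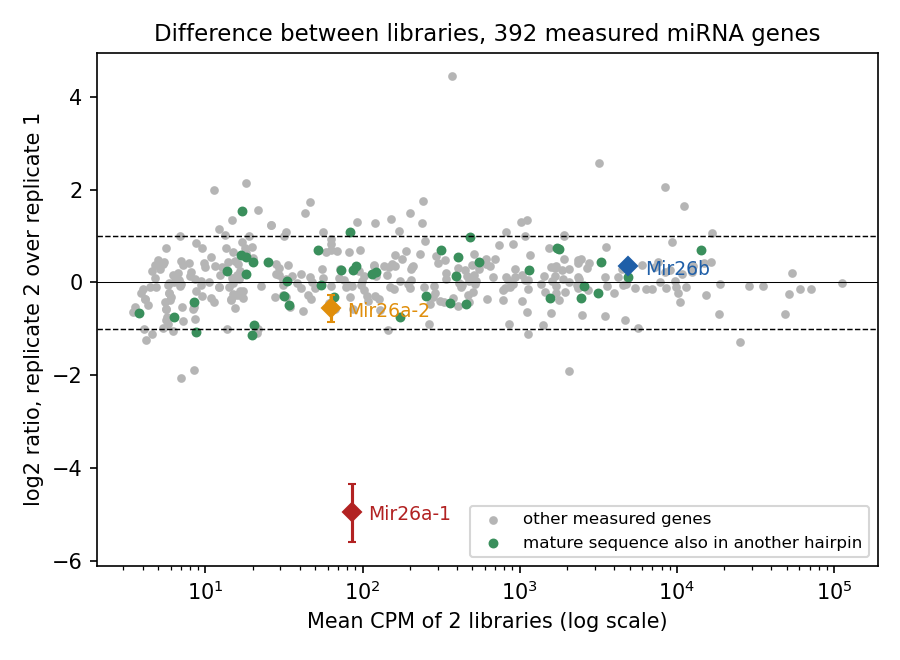
Log2 ratio of replicate 2 over replicate 1 (y axis) against mean CPM (x axis, log scale) for the 392 measured genes; diamonds are the miR-26 genes with 95% counting intervals, green points are other genes with a mature sequence also found in another hairpin, and dashed lines mark 2-fold. Mir26a-1 lies at -4.94, below every other gene, while Mir26a-2 (-0.56) and Mir26b (0.35) lie between the dashed lines.

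Low counts and shared sequence were each set beside this value. Of 150 measured genes whose lower count was between 10 and 99, as for Mir26a-1, 11 (7.33%) were lower in replicate 2 past 2-fold and 17 (11.3%) were higher. Of 46 measured genes with a listed mature sequence that also lies in another hairpin, Mir26a-1 and Mir26a-2 among them, 3 (6.52%) were lower past 2-fold and 2 (4.35%) were higher. Of 288 measured genes whose listed mature sequences lie in no other hairpin, Mir26b among them, 10 (3.47%) were lower and 24 (8.33%) were higher. A listing was at hand for 334 of the 392 measured genes, and the others are in neither class. The classes follow what is listed: Mirlet7a-2 (log2 ratio -1.01) fell in the class without sharing, and Mirlet7a-1 (-0.44) in the class with it. The part of read length, of 5′ end use and of arm use in the value of Mir26a-1 was not tested, since the files give 1 count for a whole hairpin.

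The split between numbered copies gave a comparison that cancels the library totals. For each of 22 families with exactly 2 numbered copies and at least 20 summed counts in each library, the share of copy 1 was taken. In miR-26a, copy 1 supplied 68.9% of the pair's counts in replicate 1 (396 of 575, interval 64.9 to 72.6%) and 9.60% in replicate 2 (24 of 250, interval 6.25 to 13.9%), a difference of -59.3 percentage points. In the other 21 families the share moved by a median of 3.03 points in either direction, and in 19 of them by under 10 points. A share near 0 or 100% can move by few points even where the copies differ in ratio. In Mir219a, copy 1 had 0.588% and 0.213%, while copies 1 and 2 had log2 ratios of -0.75 and 0.72. In Mir3074, copy 2 had 0 counts in both libraries, so the share could not move. The larger copy changed between libraries in 2 of the 22 families, Mir26a and Mir135a.

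By percentage points, Mir135a and Mir24 came next after miR-26a. In Mir135a, copy 1 had 31.6% in replicate 1 (30 of 95 counts) and 54.5% in replicate 2 (66 of 121). In Mir24, copy 1 had 45.1% and 34.2%. Intervals of the Mir135a shares did not overlap (22.4 to 41.9% and 45.2 to 63.6%). For Mir24 they did, at 37.5 to 52.8% and 29.7 to 38.8%. These counts are small, and these families too have copies whose shared reads were not assigned.

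**Figure D5:**
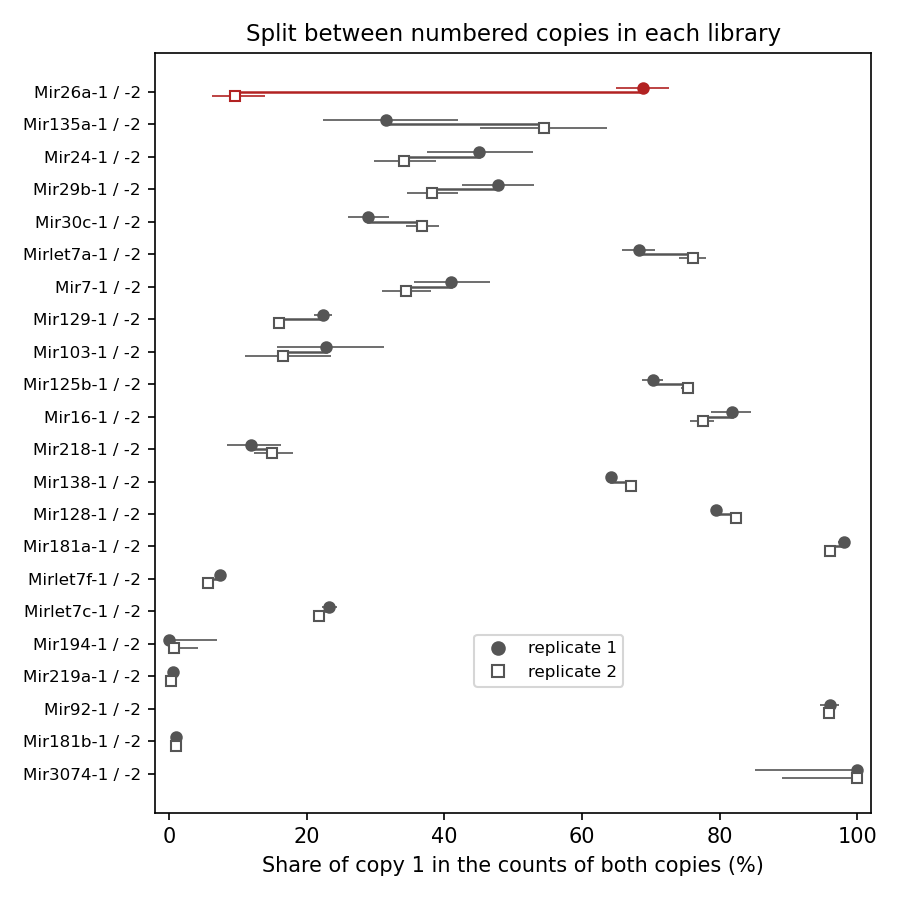
Share of copy 1 in the counts of both copies (x axis, %) for 22 families of 2 numbered copies, in replicate 1 (filled circles) and replicate 2 (open squares), with 95% Clopper-Pearson intervals, ordered by the size of the shift. The miR-26a pair moves from 68.9% to 9.60%, and the other families move by 23.0 points or less.

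Other miRNAs from introns of paralogous hosts were listed beside the miR-26 family. Of the 17 genes on that list, 11 were measured, 1 was higher past 2-fold in replicate 2 (Mir153, in Ptprn2, 2.84-fold) and 1 was lower (Mir103-1, in the pantothenate kinase gene Pank3, at 0.479 of replicate 1). Over all measured genes 8.42% were higher and 3.83% lower past 2-fold, and counts of 1 in 11 do not set the list apart. Their median log2 ratio was 0.39, against 0.06 over all measured genes. Mir128-1 in R3hdm1 and Mir128-2 in Arpp21 had log2 ratios of 0.70 and 0.44, and Mir103-1, Mir103-2 and Mir107 in the Pank genes had -1.06, -0.49 and -0.72. Mir218-1 and Mir218-2, in the axon guidance genes Slit2 and Slit3, had 0.56 and 0.18. Mir204 in Trpm3 and Mir211 in Trpm1 had 0.50 and 1.77, though Mir211 was not measured (6 and 38 counts). Mir208a and Mir208b, in the myosin genes Myh6 and Myh7, had low counts (17 and 16 against 5 and 22), and Mir208b was not measured. Their log2 ratios were -0.98 (95% interval -2.07 to 0.09) and 1.24 (-0.20 to 3.00), so neither sign was beyond counting error. In the Ctdsp hosts the log2 ratios were of both signs, with Mir26b at 0.35, Mir26a-2 at -0.56 and Mir26a-1 at -4.94. The host mRNAs were not measured here. The list also holds 4 heart and muscle miRNA genes with no coding host in this annotation (Mir1a-1, Mir1a-2, Mir133a-1 and Mir133a-2), which had at most 1 count in a library.

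The miRNAs of the REST and Ctdsp circuit were described too, since the miR-26 hosts belong to it. Of 16 such genes, all were in the files and 13 were measured. Past 2-fold, 1 was higher in replicate 2 (Mir153) and 0 were lower, and the median log2 ratio was 0.26, against 8.42% higher, 3.83% lower and a median of 0.06 over all measured genes, and 1 of 13 is near these shares. Mir132, which follows neuronal activity, was the most abundant, with 144239 and 168080 counts. Mir29a had 15654 and 53137 counts, and Mir137 had 15205 and 35860. The Mir9 copies, known from neural progenitors and neurons, had 11 to 352 counts, and Mir124a-1, Mir124a-2 and Mir124a-3 had at most 9. Mir26b, at 10329 and 24451 counts, was below Mir132, Mir29a and Mir137 in each library and above the other genes of the list. A listed mature sequence of each Mir9, Mir29b and Mir218 copy also lies in another hairpin. Reads that match several places are on no gene, and reads common to the Mir124a copies would be missing likewise. These counts therefore do not rank the mature miRNAs.

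Genes of like level were found by the distance of log2(CPM + 1) over the 2 libraries, which measures level and no shared control. For Mir26b these were Mir138-1 (distance 0.17), Mir383 (0.18) and Mir92b (0.20). For Mir26a-2 they were Mir155 (0.09), Mir203 (0.13) and Mir29b-1 (0.21). For Mir26a-1 no close gene existed: the nearest, Mir3064, was 2.75 away, with 69 and 60 counts, followed by Mir135a-2 (2.78) and Mir200c (2.79).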

How the data were processed

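Raw counts per miRNA gene, on mm10 with GENCODE M21, were deposited by the authors, per the readme files. Which aligner and counter made them is not given in the sources used here. With no header, columns were read from their values as counts on both strands, the own strand and the opposite strand. The own strand was used. The both-strand column was not the sum of the others. In replicate 1 it totalled 2221800, below the own-strand total of 2388379, and gave Mir126a 0 counts against 25752 on the own strand. The 4 leading entries name no gene and stayed out of the totals: unmapped reads were 31.6% and 18.2% of all reads in replicates 1 and 2, and reads in no feature 7.36% and 6.91% of mapped reads. All 2202 identifiers matched GENCODE M21. Members and lists were chosen with earlier results of these data known. No test between libraries was made: with 1 group, edgeR's quasi-likelihood test has no contrast. Named were the members, genes with their seed, the 3 genes nearest in level, the 3 largest shifts between copies, and list members. Mir879, Mir301, Mir219a, Mir3074, Mirlet7a-1 and Mirlet7a-2 were added after their values were seen, though the Mir219a copies are also list members. Ratios have exact conditional binomial intervals at 95%. Their code was run on simulated counts with counting error alone (Poisson), which the intervals assume, so that check does not cover spread between mice. Alternatives used edgeR 4.0.16 (TMM) and DESeq2 1.42.0 size factors in R 4.3.3, other totals, strands, minimums, folds and pseudocounts. Tables and intervals were made with pandas 2.3.3, NumPy 2.4.6 and SciPy 1.17.1 in Python 3.11.15, and plots with matplotlib 3.10.9. The labels number the replicates as biological and give each tissue sample its own animal number.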

Additional observations from a re-analysis of the deposited data

How the results depend on the processing

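Of 52 alternatives other than leaving out a replicate, 35 were labelled the same, 17 moved and 0 reversed. The limits were the SD for levels and shares, the counting interval for ratios and 1.5-fold for numbers of genes. Only the ratio of Mir26a-1, past 2-fold, could be labelled reversed. The SD of Mir26a-1 exceeded its mean, so its level was labelled the same at 37.6 and at 185 CPM. The members' both-strand counts equal their own-strand counts, so the shares could not move there. With 2 libraries, leaving out 1 gives the other's value, which for Mir26a-1 is 5.40 CPM without replicate 1 and 166 CPM without replicate 2, and for its share of the miR-26a counts 9.60% and 68.9%. The log2 ratio of Mir26a-1 ranged from -5.12 to -4.92 over the 5 alternatives of scaling and strand. That of Mir26b stayed above 0, at 0.29 with TMM scaling, 0.28 with DESeq2 scaling, 0.22 with mapped reads as denominator and 0.16 with the total without the 10 most abundant genes. These denominators shift the log2 ratio of every gene alike, by -0.13 for mapped reads and -0.18 for the total without the 10 genes. With mapped reads as denominator, mean levels were 37.6 CPM for Mir26a-1, 26.7 CPM for Mir26a-2, 2061 CPM for Mir26b and 2125 CPM for the family. Without the 10 most abundant genes in the total, they were 185, 129.9, 9951 and 10266 CPM. Measured genes past 2-fold were 80 higher and 50 lower at a minimum of 1 count, 16 and 4 at 100 counts, and 68 and 40 past 1.5-fold. With a listed mature sequence in another hairpin, 3 of 46 genes were lower (6.52%), Mir26a-1 among them, against 3.83% of all measured genes. With a lower count of the pair between 10 and 99, 11 of 150 were lower (7.33%). Both of these alternatives were unplanned, chosen after seeing the data. No paired analysis was possible because there is only 1 group. The 24 counts of Mir26a-1 in replicate 2 limit the precision of its ratio.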
